A study of Mus musculus with 12 samples.

Results

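The 7 genes described here form the core of the aryl hydrocarbon receptor (AHR) pathway: the receptor Ahr, its DNA-binding partner Arnt, and the target genes Cyp1a1, Cyp1b1, Cyp2s1, Tiparp and Ahrr. They were taken by name from a table of 55401 mouse genes, and each name matched 1 row. Expression was measured by bulk RNA sequencing in 12 libraries of mouse airway organoids, 3-dimensional cultures grown from lung airway epithelial cells of C57BL/6J wild-type mice. In 6 dishes, a femtosecond laser had ablated 10 neighboring cells in each of 45 organoids (laser-treated group), and in 6 control dishes no cell was ablated. All dishes carried a lentiviral reporter, H2A-mCherry under a p63 promoter, were moved to FluoroBrite DMEM ahead of the laser step, and were harvested 4.5 h after it. A laser-treated and a control dish of the same number (1, 3, 4, 5, 6 or 7) shared passage, culture day and date and are called a pair. Library numbers fell into 2 runs, called library set 1 (pairs 1, 3 and 5) and library set 2 (pairs 4, 6 and 7). The titles of controls 4, 6 and 7 hold the word ablation, but their treatment label reads control, and they were taken as controls. Nothing in the labels says that dishes came from different animals, so p-values measure the spread between dishes, and in whole-organoid RNA a change in the number of cells of a type and a change in RNA per cell cannot be told apart.

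AHR is a ligand-activated transcription factor of the basic helix-loop-helix PAS family. Without ligand it is held in the cytosol by HSP90 and its co-chaperones, and after binding a ligand, such as a dioxin, a polycyclic hydrocarbon or a tryptophan derivative, it enters the nucleus and pairs with ARNT. The pair binds xenobiotic response elements and switches on genes of foreign-compound metabolism, among them the cytochrome P450 enzymes CYP1A1 and CYP1B1, which oxidize polycyclic hydrocarbons. Further targets, the AHR repressor (AHRR) and the mono-ADP-ribosyltransferase TIPARP, restrain the receptor. In lung epithelium, CYP1A1 is known as an enzyme with a low basal level that is induced by smoke constituents.

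The promoters of target genes are shown because the letters GCGTG are the core of the xenobiotic response element. The 250 bases before the RefSeq start site (GRCm38.p6) were searched on both strands for GCGTG and for the longer TNGCGTG, every match of which is also a match of GCGTG. The windows below are printed 5′ to 3′ on the gene's strand, and capitals mark the core, which reads CACGC where it lies on the other strand. They are Cyp1a1 (chr9:57697363-57697612, plus strand), Cyp1b1 (chr17:79715062-79715311, minus strand), Tiparp (chr3:65528197-65528446, plus strand) and Ahrr (chr13:74292332-74292581, minus strand).
Cyp1a1: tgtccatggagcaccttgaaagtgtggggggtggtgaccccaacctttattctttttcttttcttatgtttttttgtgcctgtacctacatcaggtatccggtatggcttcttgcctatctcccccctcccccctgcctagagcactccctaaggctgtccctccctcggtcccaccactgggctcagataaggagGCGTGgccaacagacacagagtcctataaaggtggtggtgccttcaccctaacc
Cyp1b1: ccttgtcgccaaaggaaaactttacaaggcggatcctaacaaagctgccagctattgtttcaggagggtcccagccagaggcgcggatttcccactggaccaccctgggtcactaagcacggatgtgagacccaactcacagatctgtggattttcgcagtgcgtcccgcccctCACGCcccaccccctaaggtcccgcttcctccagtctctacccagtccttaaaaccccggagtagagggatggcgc
Tiparp: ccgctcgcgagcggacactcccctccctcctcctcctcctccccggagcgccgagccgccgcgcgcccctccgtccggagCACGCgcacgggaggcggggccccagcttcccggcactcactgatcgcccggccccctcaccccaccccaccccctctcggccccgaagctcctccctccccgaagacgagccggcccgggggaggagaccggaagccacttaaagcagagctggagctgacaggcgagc
Ahrr: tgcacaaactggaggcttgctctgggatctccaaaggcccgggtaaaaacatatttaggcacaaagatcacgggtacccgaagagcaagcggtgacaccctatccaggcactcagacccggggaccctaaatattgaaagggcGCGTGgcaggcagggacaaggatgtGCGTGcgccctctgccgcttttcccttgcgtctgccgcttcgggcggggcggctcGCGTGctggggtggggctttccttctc
The core began 54 bases before the start of Cyp1a1, 76 bases before that of Cyp1b1 and 170 bases before that of Tiparp. In Ahrr it occurred 3 times, 107, 82 and 27 bases before the start, and 1 of these matches was also TNGCGTG. Arnt held 1 core match and Cyp2s1 none, so that 5 of the 6 genes with a window held the core. The windows of Cyp1a1 and Cyp2s1 (chr7:25816526-25816775) lie inside the annotated gene spans given below, and that of Tiparp reaches into its span. Bases before the annotated gene starts of Cyp1a1 and Cyp2s1 therefore lay outside these windows. Over all 32851 windows of this length, 28.2% held GCGTG and 4.10% TNGCGTG, 2.77% held at least 3 cores, and among the 12734 windows of tested genes 44.5% held GCGTG. These matches describe the letters in the window and not binding.

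Read counts recovered from 9 libraries summed to 23631212 to 29775699 per library (median 28341576), and the values given below are normalized counts, read counts divided by 1 size factor per library. A gene was tested when 6 or more libraries had 10 or more normalized counts, which held for 13792 genes and for 5 of the 7 pathway genes. Cyp1a1 and Ahrr were below this minimum and were compared gene by gene. The basal cell marker Krt5 had 279007 ± 42180 normalized counts (SD, n = 6) in the laser-treated group and 274709 ± 35158 in the control. The club cell marker Scgb1a1 was near absence, with 0 to 9.65 normalized counts. Scgb3a1, Scgb3a2, Bpifa1 and Muc5b had group means of at most 93. The secretory cell markers Cyp2f2 and Aldh1a1 were abundant, with means of 47108 and 3890 after ablation and 50895 and 2905 in the control. The summed level of 6 multiciliated cell markers was 32.7 to 67.2 in all libraries.

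Levels were compared between genes per kilobase of exon. In control organoids Cyp1b1 came first with 559 ± 181 normalized counts per kb (SD, n = 6 here and below), followed by Ahr with 436 ± 30.8, Arnt with 248 ± 15.0, Cyp2s1 with 109 ± 20 and Tiparp with 104 ± 3.85. Cyp1a1, with 0.232 ± 0.417, and Ahrr, with 0.198 ± 0.0826, were far below these. Within libraries, Ahr exceeded Arnt, Arnt exceeded Cyp2s1, and Tiparp exceeded Cyp1a1 in 6 of 6 controls (exact sign-flip test, two-sided, p = 0.0312 each, the smallest this design allows, and adjusted p = 0.0625 over 6 neighbors). The neighbors Cyp1b1 and Ahr (p = 0.219), Cyp2s1 and Tiparp (p = 0.656) and Cyp1a1 and Ahrr (p = 0.375, exact tests) did not differ beyond their spread. The order was the same after ablation, with 1188 ± 445 for Cyp1b1, 459 ± 43.5 for Ahr, 251 ± 13.3 for Arnt, 136 ± 21.3 for Cyp2s1, 118 ± 13.3 for Tiparp, 39.8 ± 56.5 for Cyp1a1 and 1.31 ± 1.46 normalized counts per kb for Ahrr. There, Cyp1b1 exceeded Ahr in 6 of 6 libraries and Cyp1a1 exceeded Ahrr in 5 of 6.

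The receptor and its partner had almost equal levels in both groups. Ahr (ENSMUSG00000019256.17, chr12:35497974-35535038, minus strand) had 2531 to 3239 normalized counts in the laser-treated group (median 2826) and 2500 to 3027 in the control (median 2649). The groups overlapped, and Ahr was higher after ablation in 4 of 6 pairs. Its log2 fold change was 0.07 (95% confidence interval -0.06 to 0.21, limma adjusted p = 0.809), so that this interval holds no change larger than 0.21 on the log2 scale. Arnt (ENSMUSG00000015522.18, chr3:95434388-95497240, plus strand) ranged from 1884 to 2164 normalized counts after ablation (median 1996) and from 1811 to 2130 in the control (median 2024). Its groups overlapped as well, and the log2 fold change was 0.02 (-0.09 to 0.13, limma adjusted p = 0.949). The pair-to-pair spread of both was narrow, with an SD of the log2 difference of 0.07 for Ahr and 0.05 for Arnt, against a median of 0.15 over all tested genes.

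Cyp1a1, the classical AHR-induced P450 enzyme, had 0 to 3 reads in each control dish, and far more reads in some but not all laser-treated dishes. The gene (ENSMUSG00000032315.6) spans chr9:57687928-57703824 on the plus strand, and the RefSeq start site of the window above lies inside this span. Control dishes 1, 3, 6 and 7 had 0 normalized counts, control 4 had 1.01 and control 5 had 2.87. After ablation, Cyp1a1 reached 339 normalized counts in dish 3 and 287 in dish 6, while dishes 1 and 5 had 20.5 and 13.1, dish 7 had 3.89 and dish 4 had 1.98. Dishes 3 and 6 therefore stood far above the other 4, and the lowest laser-treated dish overlapped the highest control. The reads added up to 671 in the laser-treated group and 4 in the control.

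Since 4 controls were at 0, fold changes in their pairs were computed against a floor of 3 reads per control library. Against that floor, Cyp1a1 was 110-fold higher in pair 3, 97.0-fold in pair 6, 7.07-fold in pair 1 and 1.11-fold in pair 7. These values leave out the counting error of the laser-treated dish and are not lower limits of an interval. Pair 7 had only 4 reads against 0. In pair 5 the ratio was 4.58 (95% exact interval 1.28 to 24.8) and in pair 4 it was 1.97 (0.102 to 116), intervals that cover counting error only. Cyp1a1 was higher in 6 of 6 pairs, and the groups differed (exact permutation test of 6 against 6 dishes, two-sided, p = 0.00433, and exact sign-flip test over pairs, p = 0.0312, the smallest possible). With any 1 pair left out the exact permutation p was 0.00794 to 0.0159. Among the 14742 genes below the count minimum, 1.55% were higher with an exact p under 0.05. That share includes genes with too few reads to reach such a p. After adjustment over all of these genes 0 passed, where 358 had an unadjusted exact p under 0.05. The smallest p of this exact permutation test is 0.00216, so a gene could pass that adjustment only if many genes reached this value together. The adjusted outcome therefore cannot decide about Cyp1a1. In the limma fit over every gene with any count, Cyp1a1 had an adjusted p of 0.770, and of 0.328 with pairs in the model.

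Cyp1b1, which oxidizes polycyclic hydrocarbons and estrogens, was the most abundant target and had the largest log2 fold change of the tested pathway genes. The gene (ENSMUSG00000024087.4) lies at chr17:79701537-79715061 on the minus strand. In pairs 1, 3, 4, 5, 6 and 7 it had 4149, 5270, 6231, 8366, 11424 and 6204 normalized counts after ablation. The controls had 1754 (dish 3) to 4495 (dish 5), with a median of 3533. Each laser-treated dish exceeded its own control, although dish 1 after ablation lay below control 5, so that the groups overlapped. The ratio within pairs was 1.78, 3.00, 1.59, 1.86, 3.63 and 1.57. The log2 fold change was 1.08 (SE 0.235, 95% confidence interval 0.58 to 1.59), a 2.12-fold difference that ranked 6th of 13792 tested genes.

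Cyp1b1 did not pass the threshold in either limma model, with an adjusted p of 0.239 in the model with library set and 0.0756 in the model with pairs. The SD of its pair differences was 0.51 on the log2 scale, wider than in 90.2% of tested genes. With 1 pair left out the log2 fold change stayed between 0.93 and 1.17, and the paired adjusted p (limma) between 0.0694 and 0.171.

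Cyp2s1, an epithelial P450 enzyme, showed a smaller difference of the same sign. The gene (ENSMUSG00000040703.11, chr7:25802475-25816913, minus strand) had 808, 546, 694, 743, 685 and 549 normalized counts after ablation in pairs 1, 3, 4, 5, 6 and 7, and 586, 394, 643, 622, 450 and 534 in their controls. The groups overlapped, and Cyp2s1 was higher after ablation in 6 of 6 pairs. Its log2 fold change was 0.32 (SE 0.136, 95% confidence interval 0.03 to 0.62), with an adjusted p of 0.619 with library set as a term and 0.0563 with pairs (limma). In the paired model without pair 7, whose difference was smallest, the adjusted p was 0.0393, and with every counted gene in that model it was 0.00796. With any other single pair left out it was 0.103 to 0.138, without trend and robust variance estimation 0.198, and in library set 2 alone 0.370 (limma).

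Tiparp and Ahrr, which restrain AHR, were higher in 5 of 6 pairs and lower in pair 1. Tiparp (ENSMUSG00000034640.9, chr3:65528410-65555518, plus strand) had 419, 508, 529, 543, 594 and 501 normalized counts after ablation and 436, 469, 442, 467, 433 and 465 in the controls of pairs 1, 3, 4, 5, 6 and 7. The controls were tightly grouped, and all laser-treated dishes except dish 1 lay above them. The log2 fold change of Tiparp was 0.18 (SE 0.0761, 95% confidence interval 0.02 to 0.35, limma adjusted p = 0.619, and 0.184 in the paired model).

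Ahrr (ENSMUSG00000021575.16, chr13:74211118-74292331, minus strand) had few reads, 76 in the laser-treated group and 11 in the control. Its normalized counts after ablation were 0.975, 7.99, 7.92, 16.0, 38.5 and 2.92 in pairs 1, 3, 4, 5, 6 and 7, against 1.93, 1.02, 3.02, 1.91, 0.988 and 2.34 in the controls. The largest value, in dish 6, was again from one of the dishes with most Cyp1a1, and dishes 1 and 7 were within the range of the controls or below it. The ratio was 39.0 in pair 6 (95% exact interval 6.60 to 1579), 8.33 in pair 5 (1.98 to 74.4) and 7.81 in pair 3 (1.05 to 347), while the intervals of pairs 1, 4 and 7 included 1. The groups differed for Ahrr by the exact permutation test of 6 against 6 dishes (two-sided, p = 0.0346), but not by the exact sign-flip test over pairs (p = 0.0938). Without pair 3, 4, 5 or 6 the exact permutation p of Ahrr was 0.111, 0.0714, 0.0952 or 0.111.

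**Figure D1:**
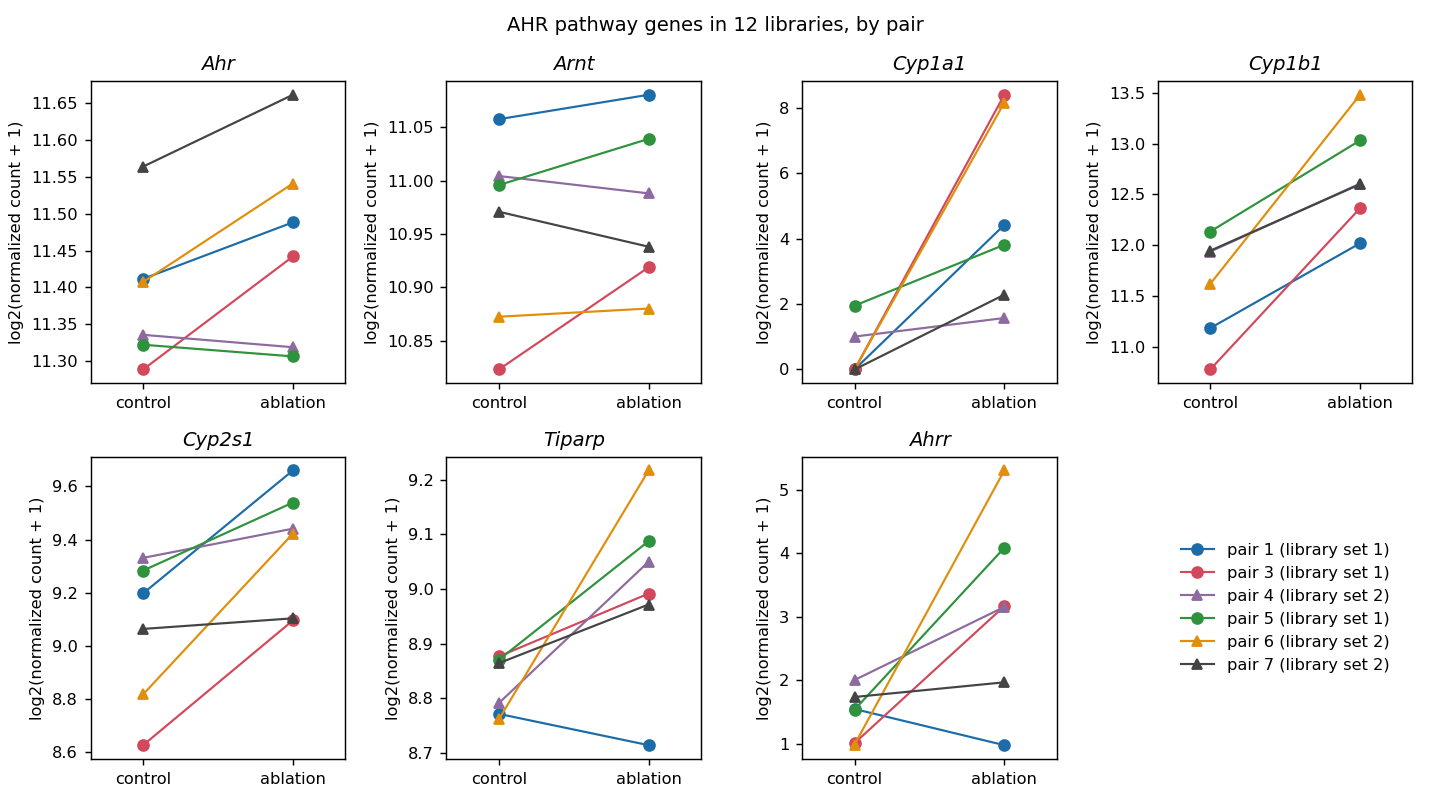
Level of each AHR pathway gene as log2(normalized count + 1) in 6 control and 6 laser-treated dishes, with a line joining each pair, circles for library set 1 and triangles for library set 2, and an axis range of its own for each gene. All lines go up for Cyp1a1, Cyp1b1 and Cyp2s1, 5 of 6 go up for Tiparp and Ahrr, and the lines of Ahr and Arnt span only a small range.

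Counted together, 0 of the 5 tested pathway genes passed an adjusted p of 0.05 in the limma model with library set, where 0% of all 13792 tested genes were called higher. At an unadjusted p under 0.05, 3 of the 5 (Cyp1b1, Cyp2s1 and Tiparp) were higher, against 4.15% of all tested genes. In the paired model, 0 of 5 passed after adjustment, where 0.674% of all genes were called higher and 1.09% in either direction, and the same 3 had an unadjusted p under 0.05, against 8.78% of all genes. Cyp1b1 and Cyp2s1 were higher in 6 of 6 pairs, as were 5.17% of tested genes. The count models edgeR and DESeq2, run on the 9 libraries with recovered reads, called 0 of the 5. That run lacked ablation 3, ablation 4 and control 4. The paper's own DESeq2 analysis, with condition and batch over all 12 libraries, names Cyp1b1 among its differentially expressed genes (adjusted p under 0.05). It also names other genes of the lists below, among them Nqo1, Slc7a11 and Trp63, whereas the limma model with library set called 0 of 13792 genes.

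**Figure D2:**
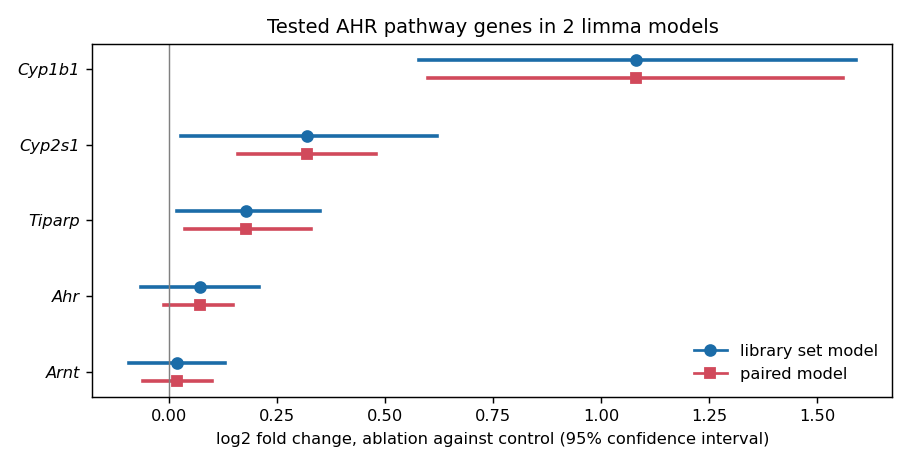
Log2 fold change (ablation against control) of the 5 tested AHR pathway genes with its 95% confidence interval from the limma model with library set (circles) or with pairs (squares). The intervals of Cyp1b1, Cyp2s1 and Tiparp lie above 0 and those of Ahr and Arnt include 0, before adjustment over all genes.

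The size of the difference varied between pairs, and pairs 3 and 6 had the largest differences for Cyp1a1, Cyp1b1 and Cyp2s1. On the scale of log2(normalized count + 1), the Cyp1a1 difference was 8.41 in pair 3 and 8.17 in pair 6, against 0.57 to 4.42 in the other 4 pairs. For Cyp1b1 it was 1.59 and 1.86, against 0.65 to 0.90. For Cyp2s1 it was 0.47 and 0.60, with pair 1 close behind at 0.46 and the others at 0.04 to 0.26. Controls 3 and 6 had the lowest Cyp2s1 of the controls, 394 and 450 normalized counts. Laser-treated dish 3 had the lowest Cyp2s1 of its group, 546. For Cyp1b1, control 3 was the lowest control, 1754, against 5270 in laser-treated dish 3, whereas laser-treated dish 6 had the highest value, 11424. Pair 6 also had the largest difference for Ahrr, 4.31, and for Tiparp, 0.46. Pair 1 was uneven between targets, with differences of 4.42 for Cyp1a1 and 0.83 for Cyp1b1, but -0.57 for Ahrr and -0.06 for Tiparp. Pairs 3 and 6 came from different library sets and passages, and both had late culture days (20 and 18, against 14 or 15 in pairs 1, 4 and 5). Pair 7, of day 19 and of the passage and library set of pair 6, had the smallest differences for Cyp1b1, 0.65, and Cyp2s1, 0.04. A part of culture day in these differences was not tested. The summed basal cell markers were 626126 in laser-treated dish 3 and 481549 in dish 6, the highest and the lowest of that group, and the summed secretory cell markers were 30183 and 61609, the lowest and the second highest. Most of the basal sum came from Krt5 and Krt14, and most of the secretory sum from Cyp2f2.

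The difference between ablation and control did not differ between library sets by more than its error. For Cyp1b1 the mean log2 difference was 1.11 in library set 1 and 1.06 in library set 2 (set 2 minus set 1, -0.04, 95% confidence interval -1.22 to 1.13, limma adjusted p = 0.982). Tiparp had 0.09 and 0.28 (adjusted p = 0.763, limma), and Cyp2s1 had 0.40 and 0.25 (adjusted p = 0.833, limma). By the same test, 0.00725% of all genes differed between sets after adjustment and 7.88% before it, and 0 of the 5 pathway genes did at either threshold. Cyp1a1, below the count minimum, had mean differences of 4.90 and 3.68, and Ahrr of 1.37 and 1.90, without a test. These sizes also depend on the pseudocount, and with 5 in place of 1 the mean over all pairs was 2.76 in place of 4.29 for Cyp1a1 and 1.03 in place of 1.64 for Ahrr. Library set 1, whose control titles do not hold the word ablation, had the higher mean difference for Cyp1b1, Cyp1a1 and Cyp2s1. It had the lower one for Tiparp and Ahrr. This order lay within the error for Cyp1b1, Cyp2s1 and Tiparp and was not tested for Cyp1a1 and Ahrr.

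Between targets, 10 comparisons of the pair differences were made. The log2 difference of Cyp1b1 exceeded that of Cyp2s1 by 0.76 ± 0.35 (SD, n = 6 pairs) and that of Tiparp by 0.90 ± 0.45, each in 6 of 6 pairs (exact sign-flip test, two-sided, p = 0.0312, adjusted p = 0.0781). Cyp1a1 exceeded Cyp2s1 by 3.97 ± 3.15 and Tiparp by 4.11 ± 3.31, again in 6 of 6 pairs with the same exact p-values. Cyp1a1 exceeded Cyp1b1 by 3.21 ± 2.87 in 5 of 6 pairs (exact p = 0.0625, adjusted p = 0.125). With most Cyp1a1 controls at 0, these sizes depend on the pseudocount, and with 5 in place of 1 they were 2.44, 2.58 and 1.68. Tiparp and Cyp2s1 differed by -0.14 ± 0.26 (exact p = 0.312, adjusted p = 0.344), and Cyp1b1 and Ahrr by -0.55 ± 1.38 (exact p = 0.344, adjusted p = 0.344). After adjustment 0 of the 10 comparisons passed 0.05, and before it 4 did, all at 0.0312, the smallest exact p that 6 pairs allow.

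**Figure D3:**
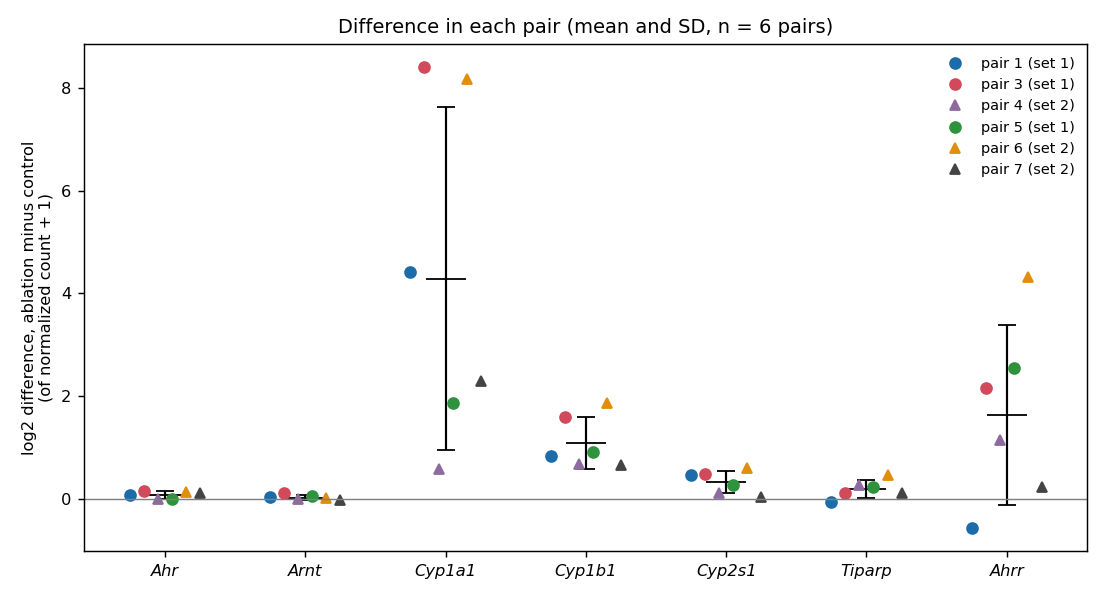
Log2 difference (ablation minus control, of normalized count + 1) in each of the 6 pairs for each AHR pathway gene, with circles for library set 1, triangles for library set 2, and a bar and whiskers for the mean and SD. Cyp1a1 and Ahrr have the widest spread, the points of pairs 3 and 6 are the upper ones for Cyp1a1 and Cyp1b1, and Ahr and Arnt lie near 0.

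Further genes that AHR is known to induce were mostly above 0 in log2 fold change, and none passed in the model with library set, where 6 of 15 had an unadjusted p under 0.05 (limma), against 7.85% of all tested genes in either direction. Of 18 listed genes 15 were tested, 13 had a log2 fold change above 0, and their median was 0.19, against -0.0036 over all tested genes. This list and those below were also chosen with earlier results known, and their shares are a description only. In the paired limma model 2 of the 15 passed, Nqo1 and Aldh3a1, with 0.674% of all genes called higher in that model. Nqo1, a quinone reductase, had 1456 to 2376 normalized counts after ablation and 1222 to 1312 in the control, without overlap. Its log2 fold change was 0.57 (paired adjusted p = 0.0285, limma). Aldh3a1, an aldehyde dehydrogenase of surface epithelia, had 35131 ± 6691 normalized counts after ablation and 26991 ± 4138 in the control (SD, n = 6 each), with overlap between groups and a higher value in 6 of 6 pairs. Its log2 fold change was 0.37 (paired adjusted p = 0.012, limma). Gsta2, a glutathione transferase, had the largest log2 fold change of the list, 0.80, with a paired adjusted p (limma) of 0.0525. The most abundant gene of the list, Serpinb2, had a log2 fold change of 0.15, and Cyp1a2, the P450 enzyme next of kin to Cyp1a1, was at 0 in all 12 libraries.

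Nqo1 is also a target of NRF2, the transcription factor of the antioxidant response, and NRF2 targets were therefore listed separately. Of 10 such genes, 8 had a log2 fold change above 0 (median 0.12), 0 passed with library set in the model (3 had an unadjusted p under 0.05) and 3 passed as higher with pairs (limma), against 7.85% of all tested genes at the unadjusted threshold and 0.674% called higher with pairs. Besides Nqo1 these were Osgin1, an oxidative stress response gene, and Slc7a11, the cystine transporter. Osgin1 had 1616 ± 158 against 1180 ± 130 normalized counts (log2 fold change 0.45, paired adjusted p = 0.0041, limma), and its groups did not overlap. Slc7a11 had 7032 ± 930 against 5718 ± 710 (SD, n = 6 each; log2 fold change 0.30, paired adjusted p = 0.00899, limma). With the variance moderated without trend and robust estimation, the paired adjusted p was 0.121 for Osgin1 and Slc7a11, 0.133 for Aldh3a1 and 0.134 for Nqo1, and none of the 4 passed. Whether AHR or NRF2 had a part in these differences was not tested.

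The genes that hold, degrade or feed the pathway had median log2 fold changes near 0, and none passed in either limma model. In the cytosolic AHR complex, 5 of 6 genes had a log2 fold change below 0 (median -0.04), and the values were -0.15 for Hsp90aa1, the largest in size, and 0.03 for Hsp90ab1, the most abundant. With pairs in the model, 1 of these 6 had an unadjusted p under 0.05, as did 2 of 12 bHLH-PAS factors, 2 of 4 tryptophan enzymes, 1 of 8 electron donor and heme genes and 3 of 11 PARP family genes (limma). Over all tested genes this share was 17.6%. Among bHLH-PAS transcription factors, 12 of 19 were tested, with 7 above 0 and 5 below (median 0.02). Npas2, a clock-related factor, had the largest change with -0.43, and Hif1a, the hypoxia factor that also pairs with ARNT, was the most abundant with -0.04. Of the enzymes that break down tryptophan, a source of AHR ligands, 4 of 13 were expressed enough to be tested (median -0.09). Kyat1, the most abundant, had -0.11, and Il4i1, an amino acid oxidase, had a log2 fold change of 0.63 and was higher in 6 of 6 pairs (paired adjusted p = 0.115, limma). The P450 electron donors and heme genes had a median of 0.03, and Por, the reductase that passes electrons to P450 enzymes, had 12238 ± 1141 against 10862 ± 1437 normalized counts (log2 fold change 0.18, paired adjusted p = 0.0884, limma). Among 11 PARP family genes, which include Tiparp, 7 were below 0 (median -0.02), and the values were -0.31 for Parp10 and -0.01 for Parp4, the most abundant.

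**Figure D4:**
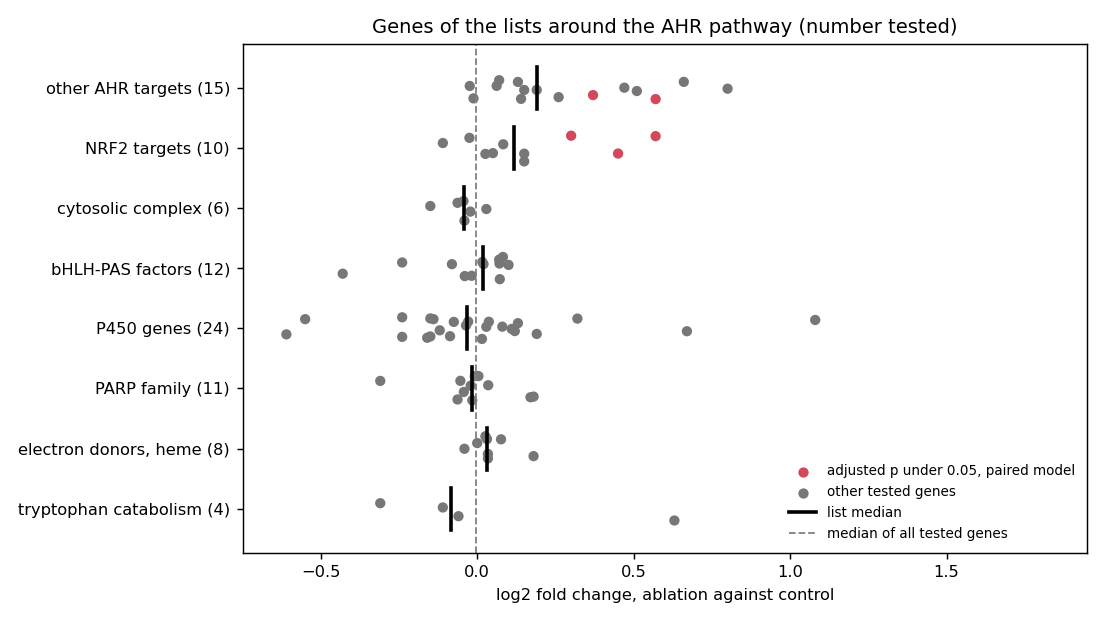
Log2 fold change (ablation against control) of each tested gene of 8 lists around the AHR pathway, with a bar for the list median and a dashed line for the median of all tested genes. Colored points mark Nqo1 (in both lists), Aldh3a1, Osgin1 and Slc7a11, which passed in the paired model, and the rightmost P450 gene is Cyp1b1.

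Cyp1b1 and Cyp2s1 were also placed among all P450 genes. The table listed 94, of which 35 were at 0 in all libraries and 24 were tested. Of these, 11 had a log2 fold change above 0 and 13 below (median -0.03), 0 passed in either limma model, 10 had an unadjusted p under 0.05 in the paired one (17.6% of all tested genes did), and 4 were higher and 3 lower in 6 of 6 pairs, where 5.17% and 4.63% of all tested genes were so. Cyp1b1 had the highest value, 1.08. Cyp2b10, a drug-metabolizing enzyme, had 64.7 ± 10.1 against 42.0 ± 13.2 normalized counts (log2 fold change 0.67, paired adjusted p = 0.0583, limma). At the other end, Cyp2u1 had -0.61 (paired adjusted p = 0.245, limma). Its level was near the count minimum, with means of 7.28 normalized counts after ablation and 11 in the control. Cyp7b1, an oxysterol hydroxylase, had -0.55 and was lower in 6 of 6 pairs (paired adjusted p = 0.071, limma). The most abundant P450 gene, Cyp2f2 of secretory cells, had 47108 ± 18619 against 50895 ± 12274 (SD, n = 6).

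The tested genes whose log2 values followed a target most closely over the 12 libraries are given as a description, since all points share the split into 2 groups. For Cyp1b1 they were 2610035D17Rik (r = 0.951), Sik2 (r = 0.951) and Dop1a (r = 0.932). For Cyp2s1 they were Kif1b (r = 0.926), Numb (r = 0.920) and Tmem184b (r = 0.910), and for Tiparp Bclaf1 (r = 0.901), Rprd2 (r = 0.896) and Calcb (r = 0.888).

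Cell type markers were set beside these values. The summed level of 7 basal cell markers, mostly Krt5 and Krt14, was 481549 to 626126 after ablation and 477417 to 610604 in the control. That of 7 secretory cell markers, mostly Cyp2f2, was 30183 to 83729 and 34618 to 70550. In the paired limma model, 1 basal marker, Trp63 (log2 fold change 0.39), and 1 secretory marker, Aldh1a1 (0.42), passed as higher. Fibroblast markers summed to 17.8 to 48.3 and endothelial markers to 3.95 to 16.4 with Kdr and Emcn at 0. Leukocyte markers summed to 179 to 342, mostly from Cd68 and Itgam, with Adgre1 at 0. Alveolar type II cell markers summed to 975 to 1284, nearly all from Abca3, with Sftpc and Sftpb at 0. The part of these markers in the differences of the AHR pathway genes was not tested.

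Exons of 3 of the 7 genes overlapped a gene on the opposite strand in the annotation, Ahr with Gm48236 over 127 bases, Tiparp with 4931440P22Rik over 223 and Cyp2s1 with Gm26707 over 260. Those partners had mean normalized counts of 12.7, 6.13 and 1.66, far below the pathway gene in each case.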

How the data were processed

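RNA of 12 dishes (6 laser-treated, 6 control) was poly(A)-selected, made into stranded libraries and read as 75-base paired ends. The authors aligned and counted reads with nf-core/rnaseq and the GENCODE mouse annotation (GRCm38.p6) and divided the counts by DESeq2 size factors. The deposited values used here are therefore a normalized signal (unit: normalized read count), and gene length is the deposited union of exons. Whether counting used strand is not given in the sources used here. In all libraries, 100% of low values were whole multiples of 1 step (tolerance 0.1 of a step), which returned reads for 9 libraries. The steps of ablation 3, ablation 4 and control 4 were too near 1 to be accepted for a count model, and reads of Cyp1a1 and Ahrr there are values divided by that step. The 6 columns of the authors' own comparison (base mean, log2 fold change, its standard error, Wald statistic, p-value and adjusted p-value) were not used.

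Groups were taken from the treatment label. Log2(normalized count + 1) was tested in R 4.3.3 with limma 3.58.1 (eBayes, trend and robust), with condition and library set as terms, two-sided, with Benjamini-Hochberg adjustment and a threshold of 0.05. The library set stands for the batch of the study's methods, whose nature is not stated. A paired model replaced the library set by the pair. Same-numbered dishes share passage, day and date in their titles, and their deviations from the group means correlated across genes (r = 0.205 to 0.618 over 6 pairs). Genes are not independent replicates in that check. Genes below the minimum were compared by exact permutation (924 arrangements). Alternatives were edgeR 4.0.16 and DESeq2 1.42.0 on recovered reads, other pseudocounts, filters, scalings, library sets alone and pairs left out. The models were tested on simulated data. The 7 genes and all lists were chosen with earlier results of these data known. Named genes are the 7, listed genes past the threshold in either model, otherwise the gene of a list with the largest change and the most abundant one, and the 3 genes most correlated with each tested target. Cyp1a2, Gsta2, Serpinb2, Cyp2b10, Cyp2u1, Cyp7b1 and the markers were named as list members after their values were seen. Promoters are RefSeq sequences of GRCm38.p6, and 6 of 7 genes had one.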

Additional observations from a re-analysis of the deposited data

Results flagged for a closer look

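Cyp1a1 in control dish 5 had 2.87 normalized counts (3 reads) and was flagged as far from the other 5 controls, which lay between 0 and 1.01 (0 or 1 read). It was the only value flagged among the 21 groups of 6 dishes examined. With a normal spread, chance flags about 1 in 20 groups. At so few reads the flag cannot tell a far dish from counting error.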

How the results depend on the processing

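Under the alternatives, 191 of 199 results on single genes and 35 of 43 counts kept their direction and their side of the threshold. This tally includes the comparisons between targets with 1 pair left out, which could not pass. Their exact sign-flip p over 5 pairs cannot go below 0.0625. With the replicate block (paired model), 0 of the 5 tested pathway genes passed, as in the model with library set. This was also the count with edgeR and DESeq2 on the 9 libraries with recovered reads. The count was 1 (Cyp2s1) with the replicate block over every gene with any count, and 0 to 1 with the replicate block when each pair was left out. Of the listed genes, 4 passed with the replicate block (Nqo1, Aldh3a1, Slc7a11 and Osgin1) and 1 with every gene with any count (Osgin1), against 0. With 1 pair left out, Osgin1 passed in 6 of 6 paired fits, Aldh3a1 and Slc7a11 in 5 and Nqo1 in 3. Both genes below the count minimum differed between groups by the exact test, and 1 to 2 did with a pair left out, an alternative added after seeing the data; Ahrr was lost without pair 3, 4, 5 or 6. The direction reversed for Arnt in library set 2 alone (-0.014) and for Cyp1b1 minus Ahrr with a pseudocount of 5 (0.057). The cause was not tested. Over 23 alternatives, the log2 fold change of Cyp1b1 was 0.93 to 1.22 and its adjusted p 0.0694 to 0.803.

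Low read numbers limit Cyp1a1 and Ahrr, whose controls added up to 4 and 11 reads, and the pseudocount sets the size of their log2 differences. Exact tests over 6 pairs cannot go below 0.0312. The laser-treated and control dishes of one pair share a culture, and the labels do not say whether pairs share an animal.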
